A study of Mus musculus with 12 samples.

Results

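Toll-like receptors are the membrane sensors by which macrophages detect microbial lipids, proteins and nucleic acids. The 10 genes described here are 8 of these receptors (*Tlr1*, *Tlr2*, *Tlr4*, *Tlr6*, *Tlr7*, *Tlr8*, *Tlr9* and *Tlr13*), the co-receptor gene *Cd14* and the adaptor gene *Myd88*. They were chosen by name, and all 10 are among the 13232 genes of the table. RNA was measured in bone marrow-derived macrophages, cells grown from the marrow of wild-type C57B6/J mice with 20 ng/ml of the growth factor M-CSF. The medium held 10% serum until day 4 and was serum-free from then on. On day 7 the cultures spent 1 h at 1% oxygen. The diet of the marrow donors was either normal (ND) or high in fat (HFD), with 3 libraries for each. All 6 libraries are thus hypoxic, and the 6 normal-oxygen libraries that the labels also describe were not analysed here. Nothing below therefore speaks of the response to oxygen. The age of the mice, the length of feeding and the number of mice behind a library are not given in the sources used here. The p-values measure the spread between these libraries, which may be technical.

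The receptors fall into 2 groups by place. TLR1, TLR2, TLR4 and TLR6 sit at the cell surface, where TLR2 pairs with TLR1 or TLR6 to bind lipopeptides, and TLR4 binds lipopolysaccharide with the help of CD14. TLR7, TLR8, TLR9 and TLR13 sit in endosomes, where TLR7, TLR8 and TLR13 sense RNA and TLR9 senses DNA with unmethylated CpG. MYD88 is the adaptor that all of these receptors use to start NF-kB signalling.

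The values are normalized levels, estimated gene counts divided by a size factor for each library. The genes of the table together held an estimated 19046100 to 24491300 reads per library. Reads not assigned to these genes are not in that estimate. The genes were well covered, from 565 reads for *Tlr6* to 13715 for *Tlr13* in a single library, so that counting error was at most 4.21% of a value. That error covers counting only, since the reads carry no molecular identifiers and copies made by PCR cannot be told from separate molecules. ND replicate 3 stood apart from its diet, lying nearer to the HFD mean than to the mean of the other ND libraries in 60.2% of all genes. HFD replicate 1 lay nearer to the other diet in 56.4%, and the other libraries in 37.0% to 46.1%. In what follows the values of a diet are listed in the order of replicates 1, 2 and 3, and for genes described one by one the value without ND replicate 3 is given where that library turns the direction or changes the call. That library was picked from these same values because it lay toward HFD. Leaving it out therefore tends to widen the difference between diets, and a gene that passes only then has no separate support. All 10 macrophage markers were in the table, with a summed level of 370040 to 421730 in ND and 368920 to 428710 in HFD. Most of that sum is *Lyz2*, the lysozyme gene. Of the 10 markers, 5 were lower and 5 higher in HFD on average (median log2 fold change 0.016), from -0.14 for *Mrc1* to 0.40 for *Msr1*. *Adgre1* and *Msr1* were higher in every HFD library, as 7.44% of all genes were, and *Msr1*, a scavenger receptor gene, passed the limma test without ND replicate 3 (0.50, adjusted p 0.0254).

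No member passed the test between diets. The test was limma on log2(value + 1), with p-values adjusted by Benjamini-Hochberg over all genes. It called 0 of the 10 members, against 0% of all genes (0 of 13232). At an unadjusted p under 0.05 it found *Cd14* alone, 1 of 10 against 10.6% of all genes (5.18% lower and 5.4% higher in HFD). On average 5 members were lower in HFD and 5 higher, with a median log2 fold change of -0.015, against -0.0034 over all genes. Without ND replicate 3 the unadjusted count was 4 of 10 (*Tlr2*, *Tlr7*, *Tlr9* and *Cd14*, all lower in HFD), against 17.5% of all genes, with 7 members lower and 3 higher. With array weights the same 4 genes were found, against 27.6% of all genes. The differences were small, from -0.29 for *Cd14* to 0.15 for *Tlr1* on the log2 scale. The libraries of the diets did not overlap for *Cd14* and *Tlr6*, 2 of 10 members, against 14.5% of all genes.

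**Figure D1:**
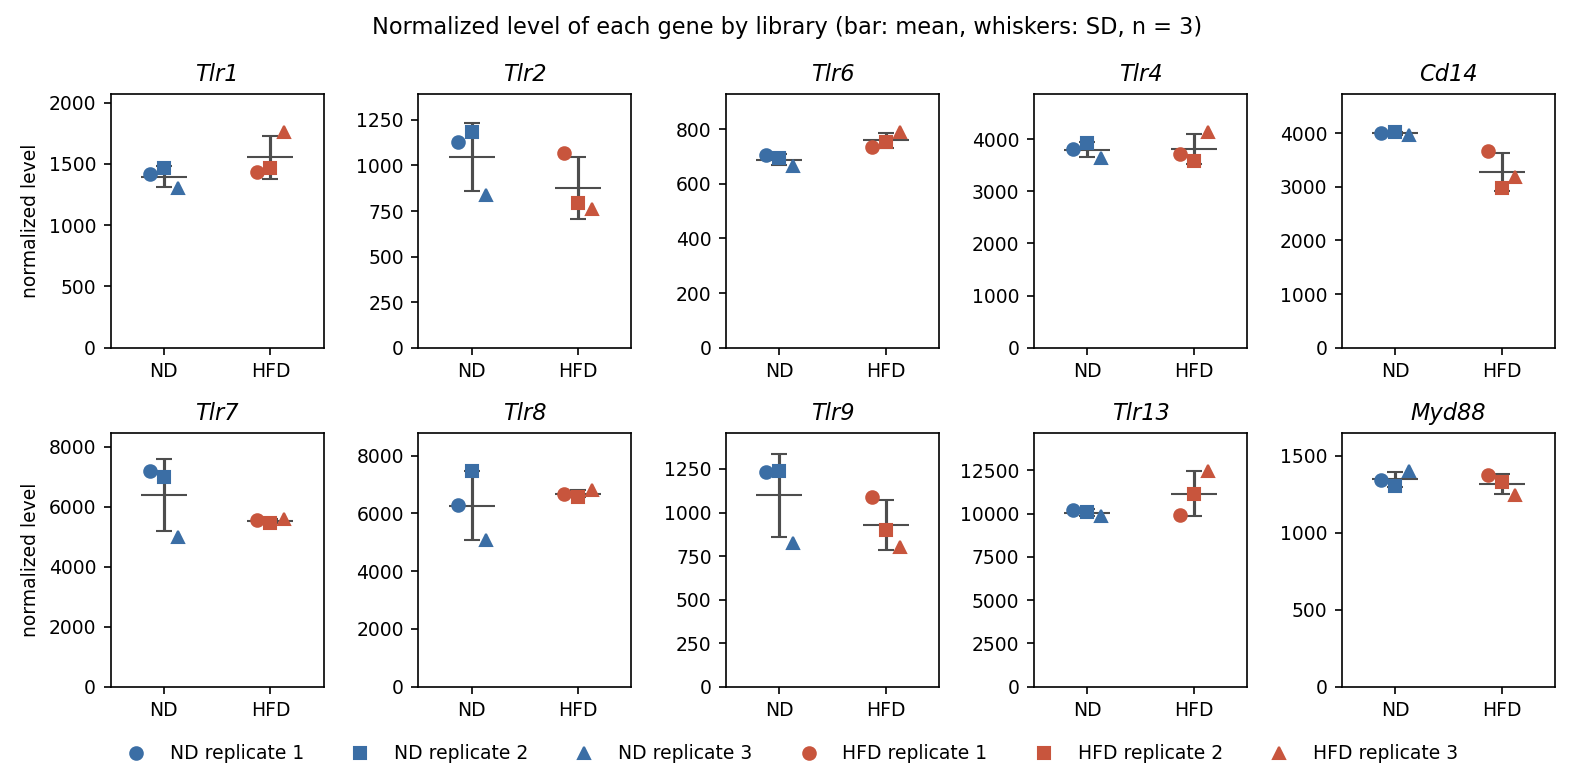
Normalized level (vertical axis, from 0) of each gene in the 3 ND and 3 HFD libraries, with the mean as a bar and the SD as whiskers. The *Cd14* points of HFD all lie below those of ND, and in *Tlr2*, *Tlr7* and *Tlr9* the triangle of ND replicate 3 lies far below the other ND points.

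*Tlr2* encodes the surface receptor shared by both lipopeptide-sensing pairs. Its normalized level was 1128, 1182 and 836 in ND and 1071, 791 and 764 in HFD. ND replicates 1 and 2 were the highest, HFD replicate 1 came close to them, and ND replicate 3 lay among the HFD values. The log2 fold change was -0.26 (SE 0.15, 95% interval -0.61 to 0.08, limma adjusted p 0.599). Without ND replicate 3 it was -0.42 (limma adjusted p 0.165), and without ND replicate 2 it was -0.17. An interval of this width takes in a difference of -0.61 as well as none.

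*Tlr1* and *Tlr6* encode the partners of TLR2, for triacylated and diacylated lipopeptides respectively. They are neighbours on the minus strand of chromosome 5, *Tlr1* (ENSMUSG00000044827.10) at chr5:64924679-64933563 and *Tlr6* (ENSMUSG00000051498.6) at chr5:64952031-64960097 in GENCODE M21 (GRCm38, the mm10 assembly). Their coding sequences are near copies over the 3′ part. From the first stretch in common on, 94.1% of 1030 aligned coding bases are identical, against 63.6% of 1309 aligned bases before it. There are 4 identical runs of 75 bases or more, of 119, 229, 208 and 80 bases, all inside the coding exon of both genes. A read of 75 bases can lie in either gene at 340 positions, which is 11.5% of the positions in the longest *Tlr1* transcript and 9.44% of those in the longest *Tlr6* transcript. The 180 bases around the start of the longest run are shown here because they make the problem visible. *Tlr1* is read at chr5:64925646-64925825 and *Tlr6* at chr5:64953937-64954116, both 5′ to 3′ on the minus strand, and the capital marks the single base at which they differ.
Tlr1: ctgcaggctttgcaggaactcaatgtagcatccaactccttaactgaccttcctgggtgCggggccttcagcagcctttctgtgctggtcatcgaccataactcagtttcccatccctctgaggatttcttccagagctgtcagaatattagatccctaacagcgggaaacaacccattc
Tlr6: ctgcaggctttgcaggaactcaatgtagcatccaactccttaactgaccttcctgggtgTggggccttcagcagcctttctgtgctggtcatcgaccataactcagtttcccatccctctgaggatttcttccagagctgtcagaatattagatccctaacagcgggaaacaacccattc

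The deposited values were set against whole reads. Divided by the value of 1 read, the *Tlr1* level was a whole number of reads (within 0.02) in 0 of 6 libraries, and so was the *Tlr6* level. Their sum was whole in 6 of 6 libraries, from 1666 to 2804 reads, and no sum was further than 0.00558 from a whole number. *Tlr2*, *Tlr9* and *Myd88*, which share no window of 75 bases with another gene, were whole in 6 of 6. The other members share no such window in GENCODE M21 either, and the values of *Tlr4*, *Tlr13* and *Cd14* lay within 0.031, 0.035 and 0.047 of a whole number (4, 4 and 2 of 6 within 0.02). *Tlr7* and *Tlr8* were whole in 0 of 6, with distances up to 0.16 and 0.387. Clear fractions were thus also seen in genes that share no such window, and the source of the fractions was not tested. For *Tlr1* and *Tlr6* the fractions cancel in the sum. The sum would not change with a split of reads between these genes, but whether reads were split was not tested.

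The *Tlr1* level was 1416, 1467 and 1301 in ND and 1436, 1466 and 1758 in HFD. The diets overlapped, and HFD replicate 3 was the only library clearly above the rest. Its log2 fold change was 0.15 (SE 0.09, 95% interval -0.05 to 0.35, limma adjusted p 0.599). Without HFD replicate 3 it was 0.059.

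The *Tlr6* level was 705, 695 and 667 in ND and 736, 754 and 789 in HFD. Every HFD library lay above every ND library, and the gap was narrow. The log2 fold change was 0.14 (SE 0.07, 95% interval -0.01 to 0.29, limma adjusted p 0.517). Non-overlap with HFD higher was seen in 7.44% of all genes. *Tlr6* had the smallest spread within diets of the 10 genes, a log2 SD of 0.046, which was 0.864 times its counting error. Its log2 fold change stayed between 0.11 and 0.16 when any 1 library was left out.

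Summed, *Tlr1* and *Tlr6* stood at 2120, 2162 and 1967 in ND and 2172, 2220 and 2546 in HFD. The diets did not overlap, by a margin smaller than the difference between ND replicates 1 and 2. The log2 fold change of the sum was 0.15 (SE 0.08, 95% interval -0.02 to 0.32, limma adjusted p 0.544), and 0.077 without HFD replicate 3. It did not pass the threshold under each of the 14 alternative settings, where its limma adjusted p ran from 0.327 to 0.948.

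*Tlr4* encodes the lipopolysaccharide receptor. Its level was 3807, 3928 and 3642 in ND and 3719, 3587 and 4132 in HFD. The diets overlapped fully, with the highest and the lowest library both in HFD. On average HFD differed from ND by a log2 fold change of 0.0058 (SE 0.07, 95% interval -0.15 to 0.16, limma adjusted p 0.985), so a difference larger than 0.16 in either direction lies outside the interval. The sign is not defined, since it was negative after scaling to the column total (-0.0066), after quantile normalization (-0.0063) and without ND replicate 3 (-0.023).

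*Cd14* encodes the surface protein that hands lipopolysaccharide to TLR4. The gene (ENSMUSG00000051439.7) lies at chr18:36725067-36726798 on the minus strand. Its level was 4006, 4019 and 3969 in ND, a range of 1.25%, and 3678, 2981 and 3188 in HFD. All HFD libraries were below all ND libraries, HFD replicate 1 by the least. The ND mean was 3998 ± 25.9 and the HFD mean 3282 ± 358 (SD, n = 3 each), a difference of -17.9%. The log2 fold change was -0.29 (SE 0.08, 95% interval -0.47 to -0.11), with an unadjusted p of 0.00437 and a limma adjusted p of 0.281. Non-overlap with HFD lower was seen in 7.07% of all genes. The direction held in all 14 alternative settings. The difference passed the threshold in 1 of them, limma with array weights (-0.36, limma adjusted p 0.0153), a setting in which 8.56% of all genes passed, 4.02% with HFD lower. ND replicate 3 did not move it, as without that library the log2 fold change was -0.30 (limma adjusted p 0.133).

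The gene nearest to *Cd14* in its course over the 6 libraries was *Rdm1*, by the root mean square difference of log2 values centred on each gene's mean (0.035). *Rdm1* was at 92.8, 90.9 and 85.03 in ND and 81.3, 65.6 and 71.7 in HFD. It too did not pass the test (log2 fold change -0.30, limma adjusted p 0.542). The nearest genes of the 10 members lay at 0.014 to 0.042, so *Rdm1* was not an unusually close match.

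**Figure D2:**
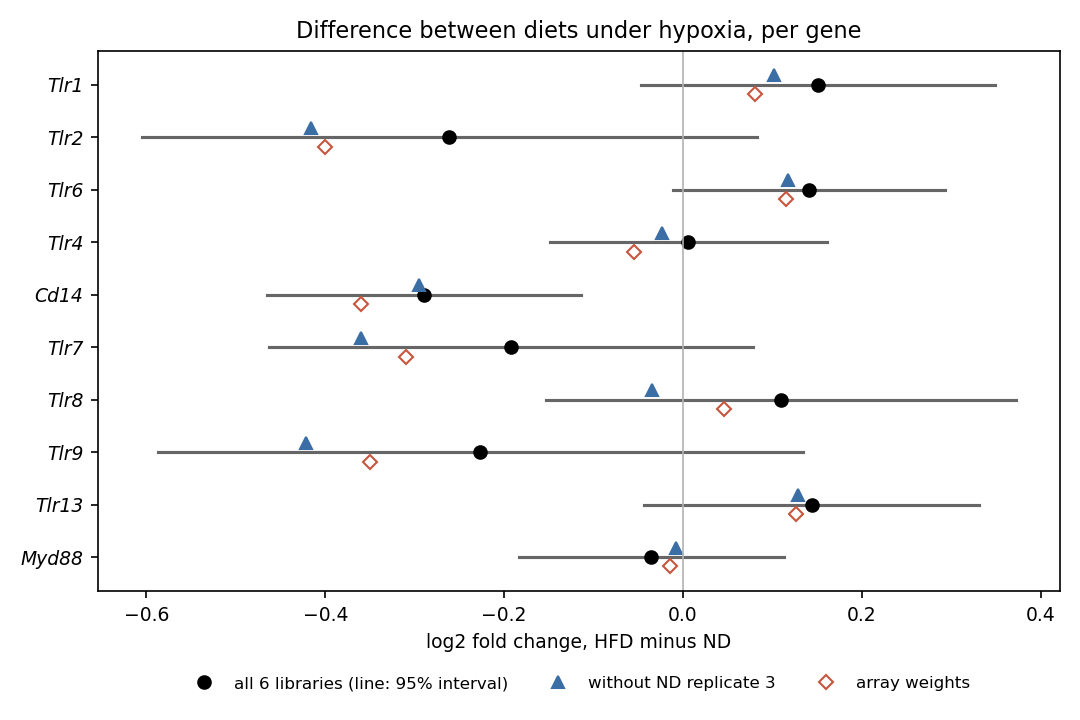
Log2 fold change of HFD minus ND (horizontal axis) for each gene, as a black point with its 95% interval from all 6 libraries, a blue triangle without ND replicate 3 and an open red diamond with array weights. The interval excludes 0 for *Cd14* alone, and the triangles of *Tlr2*, *Tlr7* and *Tlr9* lie well to the left of their points.

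*Tlr7* encodes an endosomal sensor of single-stranded RNA and lies on the X chromosome (chrX:167304929-167330558, minus strand). Its level was 7178, 6993 and 4998 in ND and 5541, 5439 and 5580 in HFD. The HFD libraries lay within 2.59% of each other, whereas ND replicates 1 and 2 were above all of them and ND replicate 3 below all of them. Between diets the log2 fold change was -0.19 (SE 0.12, 95% interval -0.46 to 0.08, limma adjusted p 0.624). Without ND replicate 3, *Tlr7* passed the threshold (-0.36, limma adjusted p 0.0201), the only one of the 10 members to do so, against 1.76% of all genes (0.537% with HFD lower). With array weights, which gave that library a weight of 0.441 and HFD replicate 2 one of 3.09, it passed as well (-0.31, limma adjusted p 0.0480). Both settings lessen the part of ND replicate 3, so they are not separate support. Without ND replicate 1 the log2 fold change was -0.099.

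*Tlr8* encodes another endosomal RNA sensor and is the neighbour of *Tlr7* (chrX:167242696-167264329, minus strand). Its level was 6292, 7462 and 5073 in ND and 6689, 6555 and 6825 in HFD. Again the HFD libraries were close together, within 4.12%, while the ND libraries spread on both sides of them. The log2 fold change was 0.11 (SE 0.12, 95% interval -0.15 to 0.37, limma adjusted p 0.790). Without ND replicate 3 it turned to -0.035.

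*Tlr9* encodes the endosomal CpG DNA sensor (chr9:106222598-106226883, plus strand, GRCm38). Its level was 1234, 1237 and 824 in ND and 1088, 899 and 803 in HFD. ND replicates 1 and 2 were nearly equal and the highest, and ND replicate 3 lay between the lower HFD values. Its log2 fold change was -0.23 (SE 0.16, 95% interval -0.59 to 0.13, limma adjusted p 0.664). Without ND replicate 3 it was -0.42 (limma adjusted p 0.110), and it was -0.13 without ND replicate 1, ND replicate 2 or HFD replicate 3.

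*Tlr13*, an endosomal sensor of bacterial ribosomal RNA that mice have and humans lack, is on the X chromosome as well (chrX:106143204-106160493, plus strand). Its level was 10213, 10124 and 9862 in ND and 9909, 11142 and 12454 in HFD. The ND libraries lay within 3.56%, and HFD replicate 1 lay among them while HFD replicates 2 and 3 were higher. The log2 fold change was 0.14 (SE 0.08, 95% interval -0.04 to 0.33, limma adjusted p 0.597). It was 0.062 without HFD replicate 3 and 0.23 without HFD replicate 1.

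*Myd88*, the common adaptor (chr9:119335934-119341411, minus strand), was at 1342, 1304 and 1401 in ND and 1376, 1329 and 1246 in HFD. The diets overlapped, with ND replicate 3 the highest and HFD replicate 3 the lowest library, and the highest exceeded the lowest by a factor of 1.12, the least of the 10 genes. On average HFD differed from ND by a log2 fold change of -0.035 (SE 0.07, 95% interval -0.18 to 0.11, limma adjusted p 0.892), and -0.0079 without ND replicate 3.

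The members differed among themselves in how they varied over the libraries. *Tlr2*, *Tlr7* and *Tlr9* shared a course in ND, with replicates 1 and 2 high and replicate 3 low. *Tlr2* and *Tlr9* were each other's nearest member (root mean square difference of centred log2 values 0.067). In HFD these genes parted, since *Tlr2* and *Tlr9* were highest in replicate 1 and *Tlr7* was even across the libraries. *Tlr1* and *Tlr13* were likewise each other's nearest member (0.057), both being highest in HFD replicate 3, as *Tlr4* and *Tlr6* also were. *Cd14* kept level in ND, with a log2 SD of 0.0093 there against 0.15 in HFD. The spread within diets was 11.1 times counting error for *Tlr7* and *Tlr8*, 8.47 times for *Tlr13*, 6.31 times for *Tlr9* and 5.80 times for *Tlr2*. It was 1.599 times counting error for *Myd88* and 0.864 times for *Tlr6*, with the other members between 3.47 and 4.58 times.

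**Figure D3:**
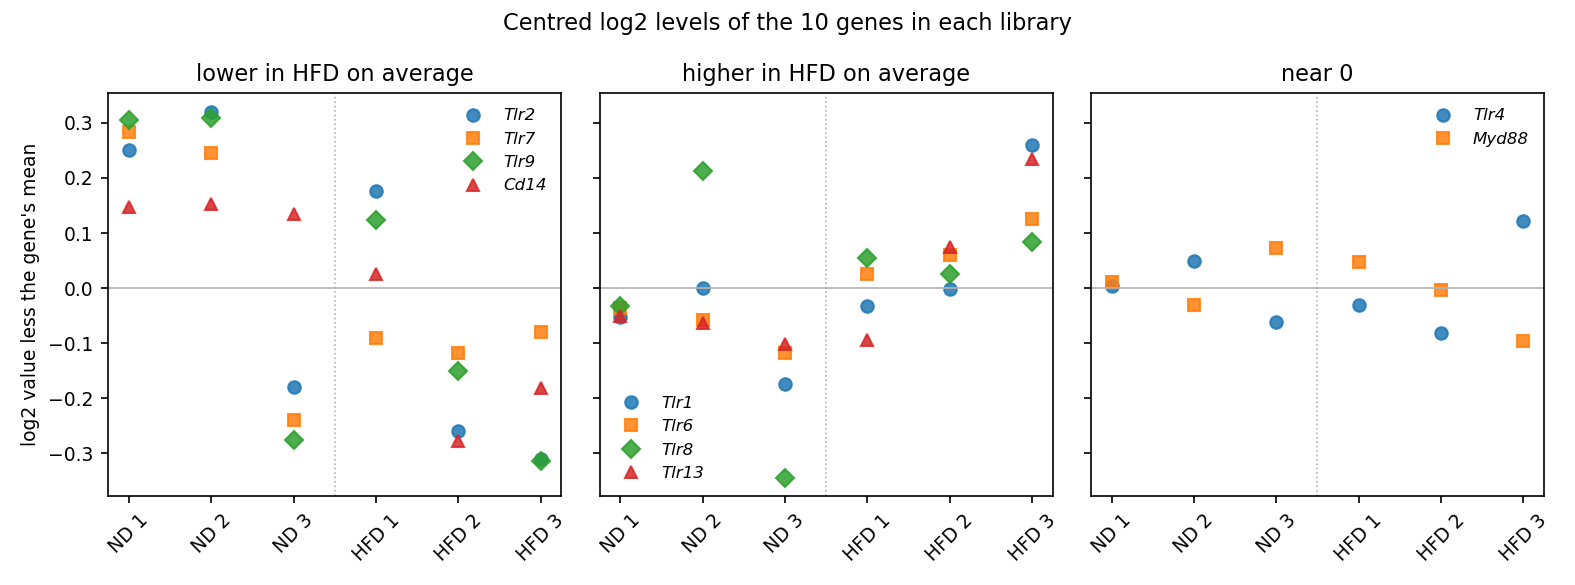
Log2 level of each gene less its mean over the 6 libraries (vertical axis) by library, with the genes grouped by the direction of their average difference. In the left panel ND replicate 3 drops from the level of ND replicates 1 and 2 for *Tlr2*, *Tlr7* and *Tlr9* but not for *Cd14*, which is 0.135 above its mean there.

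ND replicate 3 was nearer to the HFD mean for 5 of 10 members (*Tlr2*, *Tlr4*, *Tlr7*, *Tlr8* and *Tlr9*), against 60.2% of all genes. HFD replicate 1 was nearer to the ND mean for 7 of 10, against 56.4%. Without ND replicate 3, 5 of 10 members had no overlap of the diets (*Tlr2*, *Tlr7*, *Tlr9* and *Cd14* lower and *Tlr6* higher in HFD), against 35.9% of all genes (18.2% lower and 17.7% higher). The cause of the position of this library was not tested.

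Immune cells other than macrophages also carry these receptors. B cells express *Tlr7* and *Tlr9*, and 2 of 8 B-cell markers had a row in the table. *Ighm*, the immunoglobulin heavy chain gene, was at 3061, 2891 and 1889 in ND and 2075, 1876 and 1886 in HFD, a course like that of *Tlr7*, with ND replicate 3 at the HFD level. Its log2 fold change was -0.40 (limma adjusted p 0.410), and without ND replicate 3 it passed (-0.61, limma adjusted p 0.0115), as *Tlr7* did. *Igkc*, the light chain gene, was low, at 16.0 to 73.4, and higher in HFD on average. The summed level of these markers was 1915.4 to 3077.2 in ND and 1918.5 to 2148.7 in HFD. The other markers of that list were not analysed here. Of 8 markers of plasmacytoid dendritic cells, which also use TLR7 and TLR9, 3 had a row (*Bst2*, *Tcf4* and *Irf8*), summing to 9301.9 to 10409 in ND and 8597.6 to 10127 in HFD. Of these, *Bst2* was lower in every HFD library, at 928, 836 and 874 in ND and 734, 655 and 663 in HFD (log2 fold change -0.36, limma adjusted p 0.195). Neutrophils carry *Tlr2* and *Cd14*, and 6 of 10 neutrophil markers had a row, summing to 1712.2 to 2455.3 in ND and 2109.5 to 3429.7 in HFD. All 6 were higher in HFD on average, and *Mmp8*, a collagenase of neutrophil granules, was higher in every HFD library, at 443, 463 and 452 in ND and 707, 1032 and 834 in HFD (log2 fold change 0.90, limma adjusted p 0.113, and 0.0196 without ND replicate 3). The other neutrophil markers with a row overlapped between the diets (limma adjusted p 0.65 to 0.90). Without ND replicate 3 their log2 fold changes ran from 0.014 to 0.38. Of the monocyte markers 5 of 8 had a row (1574.1 to 1657.2 in ND, 1396.2 to 1699.4 in HFD). Within that list *Vcan*, the proteoglycan versican, was lower in every HFD library, at 129.7, 116.4 and 99.2 in ND and 93.0, 83.0 and 75.4 in HFD (log2 fold change -0.45, limma adjusted p 0.361). *F13a1*, a coagulation factor gene, was lower on average (log2 fold change -0.43, limma adjusted p 0.439), and the other 3 were higher on average, of which *Ly6c2* turned from 0.12 to -0.16 without ND replicate 3. The dendritic cell and mast cell lists had 1 of 8 each and the T and NK cell list 0 of 8. The mast cell gene was *Kit*, the stem cell factor receptor, at 225.5, 134.0 and 116.9 in ND and 73.4, 72.4 and 104.4 in HFD, without overlap (log2 fold change -0.88, limma adjusted p 0.284). The part of other cells in the values of the members was not tested, and in bulk RNA fewer cells of a type and less RNA per cell cannot be told apart.

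Levels of different genes were compared per kb of merged exons. *Tlr13* was the most abundant member at 2467 ± 235 normalized units per kb (SD, n = 6 libraries), followed by *Cd14* (2102 ± 262), *Tlr8* (1808 ± 221) and *Tlr7* (1459 ± 221). These 4 genes were above 94.98% to 96.9% of the 12936 genes with a length. Within these 4 the ranges of neighbours in the order overlapped, so which of 2 neighbours is higher is not fixed by these libraries. Every *Tlr13* library (lowest 2291) lay above every *Tlr8* library (highest 2081) and every *Tlr7* library (highest 1758). *Cd14* stood above *Tlr7* within each library. A gap followed, from the lowest *Tlr7* library (1224) to the highest *Tlr4* library (744). *Tlr4* (684 ± 36.3) stood above *Myd88* (518 ± 21.2) in every library. *Myd88*, *Tlr1* (441 ± 45.4), *Tlr2* (319 ± 61.6) and *Tlr9* (292 ± 57.1) again overlapped, each with the next, though by the longest transcript *Tlr1* (lowest library 430) did not overlap *Tlr2* (highest 392). *Tlr6* was the lowest at 194 ± 11.8 per kb, below all libraries of *Tlr9*. Among the 8 receptors *Tlr13*, *Tlr8* and *Tlr7* made up 32.2%, 23.6% and 19.0% of the summed level per kb, so that these endosomal RNA sensors were the main receptor transcripts, while *Tlr2* made up 4.17%.

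**Figure D4:**
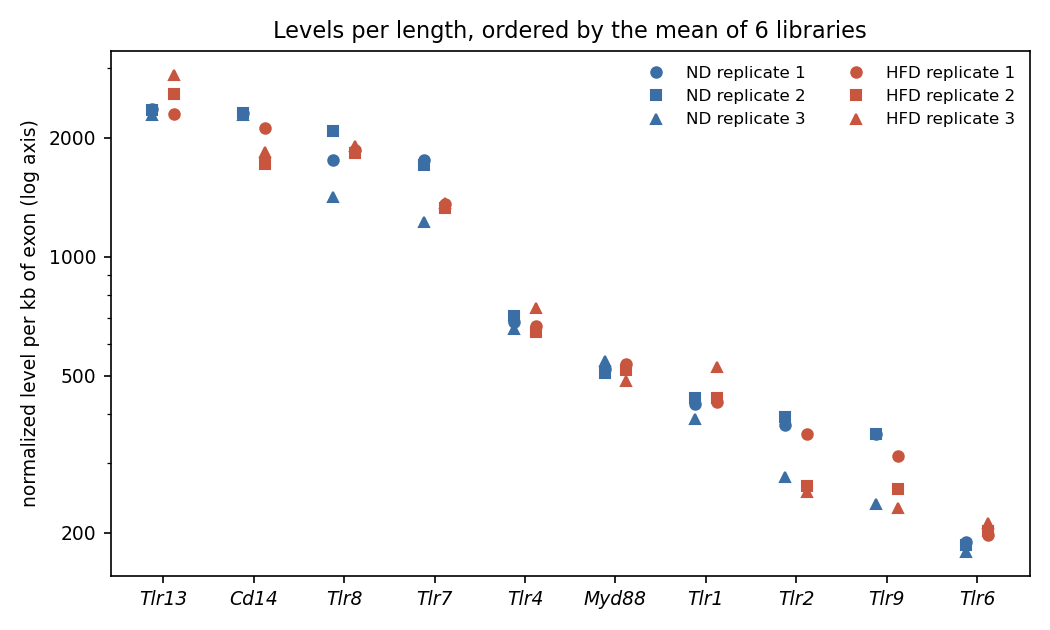
Normalized level per kb of merged exons (vertical log axis) for each gene in each library, ordered by the mean of the 6 libraries. *Tlr13*, *Cd14*, *Tlr8* and *Tlr7* form an upper band above 1224, and the other 6 genes lie below 744.

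Ratios of genes within a library do not depend on the scaling of that library. For 5 pairs, chosen after the values had been seen, the ratio of normalized levels (not per length) was compared between diets. In each pair the first gene was lower in HFD on average and the second was not. Negative differences were thus set by the choice of pairs and are no further support. How often other gene pairs lack overlap was not computed. The comparison was an exact two-sided permutation test, whose smallest possible p is 0.1 with 3 against 3. The ratio of *Cd14* to *Tlr4*, co-receptor to receptor, was 1.05, 1.02 and 1.09 in ND and 0.989, 0.831 and 0.772 in HFD. The diets did not overlap (log2 difference -0.30, exact p = 0.1, adjusted over the 5 pairs 0.2). The ratio of *Tlr7* to its neighbour *Tlr8* was 1.14, 0.937 and 0.985 in ND and 0.828, 0.830 and 0.818 in HFD, again without overlap (log2 difference -0.30, exact p = 0.1, adjusted 0.2). Here ND replicate 3 lay with the other ND libraries, unlike in the levels of either gene. For *Tlr2* against *Tlr1*, *Tlr2* against *Tlr6* and *Tlr9* against *Tlr13* the diets overlapped (log2 differences -0.41, -0.40 and -0.37, exact p = 0.2 for each). No pair passed after adjustment, and none could have at this number of libraries.

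**Figure D5:**
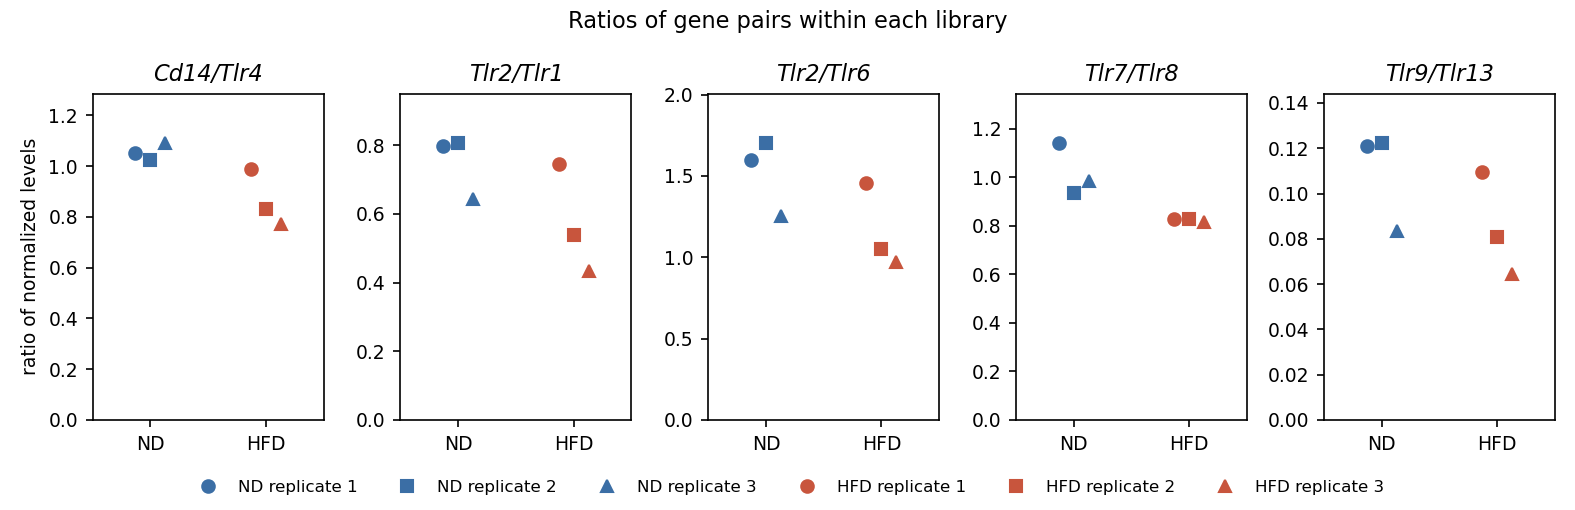
Ratio of the normalized levels of 2 genes within each library (vertical axis, from 0) for 5 pairs. The HFD points of *Cd14*/*Tlr4* and *Tlr7*/*Tlr8* all lie below the ND points, whereas in the other pairs ND replicate 3 lies below HFD replicate 1.

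Promoter sequences of the RefSeq table (GRCm38.p6) were used for 7 of the 10 genes, and *Tlr4*, *Tlr7* and *Cd14* were not searched. The 7 were *Tlr1*, *Tlr2*, *Tlr6*, *Tlr8*, *Tlr9*, *Tlr13* and *Myd88*, with 9 start sites. The 250 bases before each were searched on both strands for 4 short motifs. The PU.1 core GAGGAA, named for the factor that governs myeloid genes, occurred before 4 of 9 start sites (*Tlr1*, *Tlr8*, *Tlr9* and *Tlr13*), against 23.3% of all 32851 promoters. The interferon-stimulated response element, searched as GAAA, any 2 bases and GAAA, occurred before *Tlr6* and *Myd88* (2.98% of all promoters). The hypoxia response core ACGTG occurred before 1 site of *Tlr1* (16.6%), and the AP-1 motif TGACTCA before *Tlr9* (4.46%). A match describes the letters and is not a bound site, and no match says only that the letters are not in this window. *Tlr2* and *Tlr9* are shown because they were each other's nearest member over the libraries. The *Tlr9* stretch is chr9:106222348-106222597 on the plus strand, with the PU.1 core and the AP-1 motif in capitals. The *Tlr2* stretch is chr3:83841768-83841858 on the minus strand, the 91 bases of its window that lie outside the gene as GENCODE draws it, and none of the 4 motifs was in the whole window.
Tlr9: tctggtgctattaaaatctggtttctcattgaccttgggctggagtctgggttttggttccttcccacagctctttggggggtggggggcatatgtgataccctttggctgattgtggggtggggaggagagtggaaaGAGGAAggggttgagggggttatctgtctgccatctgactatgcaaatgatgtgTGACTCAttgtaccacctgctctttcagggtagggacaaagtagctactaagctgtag
Tlr2: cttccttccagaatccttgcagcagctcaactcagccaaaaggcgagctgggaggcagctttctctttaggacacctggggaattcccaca

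The remaining receptor genes were low. *Tlr3*, the sensor of double-stranded RNA, was at 292, 414 and 269 in ND and 323, 329 and 346 in HFD (log2 fold change 0.058, limma adjusted p 0.919). Its direction was not stable, at -0.065 without ND replicate 3 and 0.24 without ND replicate 2. *Tlr5*, the flagellin receptor, was at 52.9, 98.8 and 44.9 in ND and 50.9, 30.9 and 41.8 in HFD. ND replicate 2 stood out, and the diets overlapped (log2 fold change -0.60, SE 0.31, limma adjusted p 0.549). Leaving out ND replicate 2 gave -0.27, and leaving out ND replicate 3 gave -0.83. *Tlr11* and *Tlr12* were not analysed here.

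In the lists of other pathway genes as well, 0 genes passed the test between diets. Of 9 partners in ligand binding 8 had a row, of which 6 were higher and 2 lower in HFD on average (median log2 fold change 0.072), and the diets did not overlap for 3, all higher in HFD, as for 7.44% of all genes. *Cd36*, a scavenger receptor that assists TLR2 with TLR6, was at 39821, 49720 and 64195 in ND and 71933, 89071 and 92527 in HFD (log2 fold change 0.74, limma adjusted p 0.217). *Itgb2*, the beta chain of the leukocyte integrins, had a log2 fold change of 0.30 (limma adjusted p 0.319), and *Clec7a*, the beta-glucan receptor, one of 0.19 (0.411 by the same test). *Ly96*, which encodes the MD-2 subunit of the lipopolysaccharide receptor, was at 279, 301 and 252 in ND and 271, 264 and 302 in HFD, with overlap. Its log2 fold change was 0.012 (95% interval -0.22 to 0.24, limma adjusted p 0.980), and it turned to -0.057 without ND replicate 3 and -0.058 with array weights.

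Of 12 genes for folding, transport and cleavage of the receptors, 8 were higher and 4 lower in HFD on average (median 0.046). The diets did not overlap for 2 with HFD higher, *Ctsl* and *Tmed7* (log2 fold change of *Tmed7* 0.042), against 7.44% of all genes. They did not overlap for 1 with HFD lower, *Cnpy4*, against 7.07%. *Unc93b1*, the chaperone that carries the endosomal receptors out of the endoplasmic reticulum, was at 16606, 16864 and 16678 in ND and 18362, 17457 and 14395 in HFD (log2 fold change -0.0058, limma adjusted p 0.989). *Ctsl*, a protease of the endolysosome that can cleave these receptors, was at 16116, 17848 and 21381 in ND and 25339, 30255 and 29517 in HFD. Its diets did not overlap (log2 fold change 0.63, SE 0.11, limma adjusted p 0.145), and it passed without ND replicate 3 (limma adjusted p 0.0127). *Cnpy4*, a relative of the receptor chaperone *Cnpy3*, was lower in every HFD library (log2 fold change -0.22, limma adjusted p 0.542, and -0.13 without HFD replicate 3).

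Of the other adaptors 4 of 6 were in the table. *Tirap*, which bridges TLR2 and TLR4 to MYD88, had a log2 fold change of 0.049 (-0.014 without ND replicate 3), *Ticam1* of -0.023 and *Ticam2* of -0.080 (-0.19 without ND replicate 3), all with overlapping diets. *Pik3ap1*, an adaptor to PI3-kinase, was higher in every HFD library (log2 fold change 0.20, limma adjusted p 0.370). Of 17 kinases and ubiquitin ligases downstream of MYD88, 9 were lower and 8 higher on average (median -0.0003). The smallest p in that list was that of *Ikbkg*, the regulatory subunit of the IKK complex, at 1763, 2003 and 2431 in ND and 2505, 2709 and 2764 in HFD (log2 fold change 0.38, limma adjusted p 0.286). Of 8 transcription factors of the pathway 5 were lower and 3 higher (median -0.014). *Irf7*, an interferon regulatory factor that TLR7 and TLR9 signal to, was at 709, 610 and 547 in ND and 483, 400 and 405 in HFD, without overlap (log2 fold change -0.53, limma adjusted p 0.196). Of 14 negative regulators 12 had a row, of which 7 were lower and 5 higher (median -0.046), with *Cyld*, a deubiquitinase, at a log2 fold change of -0.18 (limma adjusted p 0.437). Of 18 genes that these receptors induce, 9 had a row in the table, of which 5 were lower and 4 higher (median -0.21). *Ccl4*, a chemokine gene, was at 426, 375 and 363 in ND and 233, 185 and 269 in HFD (log2 fold change -0.77, limma adjusted p 0.145). Among the genes named from these lists, *Cd36*, *Itgb2*, *Ctsl*, *Ikbkg*, *Irf7* and *Ccl4* passed without ND replicate 3, with limma adjusted p-values from 0.0127 to 0.0369. In that setting 1.76% of all genes passed, but this is no like comparison, since several of these genes were named for a small p. With array weights they passed too, and so did *Pik3ap1* and *Cyld* (limma adjusted p 0.0391 and 0.0410), in a setting where 8.56% of all genes passed.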

How the data were processed

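The deposited table holds 1 value per gene and library for 6 stranded total RNA libraries, each sequenced as single reads of 75 bases. Partek, STAR and the mm10 build are named in the submitters' processing notes, with no version or role; the counter, annotation and filter are not given in the sources used here. The deposited values are a signal, estimated counts scaled by the authors with 1 factor for each library, as the numbers themselves show: 57.0% to 58.3% of values between 5 and 1000 were whole multiples (within 0.02) of 1 step per library, against 3.87% to 4.24% at other steps. Since the rest were fractional, no count test was run. The column names write NC where the labels write normal diet, and were matched on that reading, with 0 columns left over.

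Diets were compared gene by gene on log2(value + 1) with limma 3.58.1 in R 4.3.3 (moderated, mean-variance trend, two-sided), with a threshold of 0.05 after Benjamini-Hochberg adjustment over 13232 genes. Fold changes on this scale understate those of low genes. The procedure was also run on simulated data with independent noise, changes larger than those of the members and no outlying library. That run does not bear on differences as small as these or on a library such as ND replicate 3. Alternatives were another pseudocount, filters, scalings, no trend, array weights, a term for the replicate number and the omission of each library. Exon lengths came from GENCODE M21, which matched 12936 symbols (97.8%).

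The members, the gene lists and the tests were chosen with earlier results of these data known. Genes named were all members, all receptors and adaptors with a row, and some genes of the lists of partners and transport. Which of the partner and transport genes are described was decided with their values seen. The gene with the smallest p of each other list was named too, as was the gene nearest in course to a member with an unadjusted p under 0.05. *Ighm*, *Igkc*, *Bst2*, *Mmp8*, *Kit*, *Vcan*, *F13a1*, *Ly6c2*, *Lyz2*, *Adgre1*, *Mrc1*, *Msr1* and the pairs for ratios were named after their values were seen. The replicate numbers were not used as pairs, since deviations from the diet means correlated at -0.00865, -0.0374 and -0.000687 for numbers 1, 2 and 3.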

Additional observations from a re-analysis of the deposited data

How the results depend on the processing

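The 10 members under 14 alternatives gave 140 log2 fold changes, of which 130 had the same direction and call. *Tlr7* passed in 2 settings and *Cd14* in 1, given above, and 7 values reversed. *Tlr4* (0.0058) was -0.0066 after scaling to the column total, -0.0063 after quantile normalization and -0.055 with array weights. Leaving out 1 library gave ranges of -0.0535 to 0.0485 for *Tlr4*, -0.035 to 0.24 for *Tlr8* and -0.068 to 0.0042 for *Myd88*. The count of genes passing (0, with 1401 at an unadjusted p under 0.05 by limma) was 1133 with array weights and 0 to 233 when 1 library was left out (233 with ND replicate 3 omitted, 2 and 1 with HFD replicate 1 or ND replicate 2 omitted, and 0 for the others). With a replicate block it was 31, and no member passed in that fit; the numbers do not pair the libraries. The median of the members (-0.015) was -0.034 with array weights and -0.029 to 0.0031 without 1 library (-0.029 without ND replicate 3, 0.0031 without HFD replicate 2). Without 1 library that of transcription factors (-0.014) was -0.046 to 0.040, that of adaptors (0.013) -0.021 to 0.069 and that of kinases and ligases (-0.0003) -0.026 to 0.017. The median of ligand-binding partners (0.072) was 0.024 with array weights and 0.0021 to 0.13 without 1 library, that of folding and transport (0.046) was 0.019 with quantile normalization and 0.019 to 0.046 without 1 library (0.023 without ND replicate 3), that of negative regulators -0.10 to -0.035 without 1 library, and that of the induced genes -0.48 over the 6 with a mean of at least 100. Among other named genes, the sign also turned when 1 library was left out for *Unc93b1* (-0.077 to 0.099), *Ticam1* (-0.069 to 0.027) and *Ticam2* (-0.22 to 0.0078). The cause of these changes was not tested. By the longest transcript in place of merged exons the levels per kb were 933 for *Tlr4*, 542 for *Myd88* and 487 for *Tlr1*. Depth sets a counting error of at most 4.21% of a member's value in a library.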
